A study of Mus musculus with 24 samples.

Results

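The stefin A family was followed in the urogenital sinus (UGS) of the mouse embryo, an endodermal tube wrapped in mesenchyme that forms the prostate in males. Its members are 7 of the 41174 probes on the array, chosen by gene name or by accession: probes whose name in the files starts with Stfa, or whose accession now carries the symbol Stfa1, Stfa2, Stfa3, Csta2 or Cstdc6. They stand for 5 genes by current symbol. The 3 probes named Stfa1 in the files (A_52_P487686, A_51_P384894 and A_51_P132185) carry an accession that now belongs to Cstdc6, a neighbouring copy, and no probe was matched to the gene now called Stfa1. Stfa2, Stfa3, Stfa2l1 and Csta2 (2010005H15Rik in the files) have 1 probe each. The family was chosen from measured ratios of these same arrays, so its levels and ratios are given below as a description, with no test. All 7 probes passed the filter on dim probes, which kept 35477, and each was well above background in both channels of all 24 arrays, with no saturated spot.

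RNA was pooled from the UGS of C57/Bl6J embryos, which were sexed by their gonads and from which the accessory ducts had been dissected away. DHT pools came from female embryos of mothers given 50 mg/kg dihydrotestosterone (DHT, a potent androgen) at 16 days post coitum (dpc), and vehicle pools from female embryos of vehicle-treated mothers, 6 h later in 4 pairs of pools and 12 h later in 3. Male and female pools came from untreated littermates at 17.5 dpc in 5 pairs, a set that the labels count as 48 h. The 2 pools of a pair were hybridised against each other on 2-colour arrays and again with the dyes exchanged, and the mean of both arrays is 1 replicate. The 3 comparisons were hybridised as separate sets. Levels are log2 fluorescence intensities, and ratios are log2 of DHT over vehicle or of male over female, so that a ratio of 1 is a doubling. The pooled tissue expressed markers of both its layers. Of UGS and bladder epithelium 23 listed genes were measured, that is, passed the filter on dim probes, and Grhl3 had no probe. Of mesenchyme and smooth muscle 13 of 13 were measured. All of these were well above background in all 48 channels, as were 6 of 19 measured neutrophil markers. In such bulk RNA, fewer cells of a type and less RNA per cell cannot be told apart.

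Stefins are small cytosolic proteins of the cystatin superfamily that bind and block papain-like cysteine proteases, the lysosomal cathepsins B, H, L and S among them. Humans have a lone stefin A gene, CSTA, whereas in the mouse the locus has expanded into a tandem array of closely similar copies. In the mouse the family is best known from neutrophils and their precursors, and in humans stefin A is a component of the cornified envelope of stratified epithelium. The RefSeq gene order on chromosome 16 places 11 stefin genes side by side: Csta1, Stfa2l1, Cstdc4, Csta3, Csta2, Stfa1, Cstdc3, Cstdc6, Cstdc5, Stfa2 and Stfa3. Of these, 7 had a probe. Copies this similar can bind one probe, and cross-hybridisation was not tested, so each probe may read more than the gene it is named for. The annotation itself shows such overlaps, since Stfa2 and Stfa2l1 share 1 accession and A_51_P384894 shares 2 with the Csta1 probe.

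Promoters are shown for the 4 members other than Cstdc6 as a description, and whether their sequences bear on the ratios was not tested. The promoter of Cstdc6, for which 3 of the 7 probes stand, is not shown or compared. The 120 bases before the annotated start were taken from RefSeq (GRCm38.p6), 5′ to 3′ on the strand of the gene. Capitals mark the longest run of letters common to the Stfa1, Stfa2, Stfa3 and Stfa2l1 sequences, a box of 13 bases with an AT-rich centre.
Stfa2, chr16:36408364-36408483, minus strand: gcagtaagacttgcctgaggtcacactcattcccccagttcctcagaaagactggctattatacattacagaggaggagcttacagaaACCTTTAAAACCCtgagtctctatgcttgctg
Stfa3, chr16:36455393-36455512, minus strand: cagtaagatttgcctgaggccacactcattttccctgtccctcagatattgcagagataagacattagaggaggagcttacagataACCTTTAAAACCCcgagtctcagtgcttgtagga
Stfa2l1, chr16:36156691-36156810, plus strand: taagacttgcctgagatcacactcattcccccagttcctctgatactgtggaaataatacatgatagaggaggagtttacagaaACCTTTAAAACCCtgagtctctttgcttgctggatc
Csta2, chr16:36221442-36221561, plus strand: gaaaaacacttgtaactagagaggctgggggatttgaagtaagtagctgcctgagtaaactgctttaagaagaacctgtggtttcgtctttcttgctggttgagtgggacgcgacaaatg

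The box begins 32, 34 and 36 bases before the start of Stfa2, Stfa3 and Stfa2l1, and Csta2 does not have it. It was found on the strand of the gene in 6 of the 10 stefin promoters with an entry. Stfa1, Stfa2, Stfa3 and Stfa2l1 hold it by its definition, and Cstdc4 and Csta3 hold it besides. On either strand it was in 8 of all 32851 promoters, 0.0244%, those of the stefins included. Both searches covered the 250 bases before the start. Over those 250 bases, Stfa2 and Stfa2l1 were 89.4% identical, Stfa2 and Stfa3 80.2%, and Stfa3 and Stfa2l1 80.3%. Csta2 matched the others at 43.0% to 45.8% with a gap cost of 2 in the alignment, and at 37.1% to 41.2% with a cost of 3, which left the other values as they were. The letters of the half-site of the androgen response element (AGAACA, in 16.1% of all promoters), of the C/EBP motif TTGCNNAA (9.56%), of the PU.1 motif GAGGAAGT (2.44%) and of the AP-1 motif TGANTCA (6.75%) were in 0 of the 4 windows on either strand, as was the full androgen response element (0.00913%).

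Between the sexes, all 7 probes were lower in male than in female pools, in each of the 5 pairs. The probe A_52_P487686 of Cstdc6 had log2 levels of 8.71, 8.36, 8.83, 8.55 and 8.30 in the male pools and 10.67, 10.66, 10.44, 10.99 and 11.01 in their female partners. Every male pool lay below every female pool. The ratios were -1.96, -2.29, -1.61, -2.44 and -2.71, a mean of -2.2 (SD 0.43, n = 5), or 4.6-fold lower in males. The other 2 Cstdc6 probes gave nearly the same values. A_51_P384894 read 8.98, 8.72, 9.18, 8.94 and 8.6 in males and 10.98, 10.96, 10.77, 11.28 and 11.35 in females, with ratios of -2.0, -2.24, -1.59, -2.34 and -2.75 (mean -2.18, SD 0.43). A_51_P132185 read 8.04, 7.89, 8.24, 8.03 and 7.79 in males and 9.94, 10.07, 9.80, 10.37 and 10.44 in females, with ratios of -1.90, -2.18, -1.56, -2.34 and -2.65 (mean -2.13, SD 0.42), the first of them from 1 array, because its spot was marked as an outlier on the other.

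Stfa3 and Csta2 formed a middle tier. Stfa3 had 7.32, 7.07, 7.54, 7.24 and 7.03 in male pools, against 8.25, 8.59, 8.46, 8.88 and 8.86 in female pools, and its ratios were -0.93, -1.52, -0.92, -1.64 and -1.83 (mean -1.37, SD 0.42, 2.59-fold lower in males). Csta2 had 7.98, 7.64, 8.00, 7.84 and 7.63 in male pools, against 9.15, 9.09, 8.87, 9.33 and 9.42 in female pools, with ratios of -1.17, -1.45, -0.87, -1.49 and -1.79 (mean -1.36, SD 0.35, 2.56-fold). Stfa3 has the shared promoter box and Csta2 lacks it, while Stfa2 and Stfa2l1, at means of -1.10 and -0.72, have it too. Each is read by 1 probe that may bind other copies, and any part of the box in the ratios was not tested. Stfa2 came next, at 6.72, 6.55, 6.65, 6.64 and 6.52 in males and 7.68, 7.72, 7.42, 7.78 and 7.96 in females (ratios -0.96, -1.18, -0.77, -1.14 and -1.44, mean -1.10, SD 0.25). Stfa2l1 had the smallest difference of the 7, with 6.82, 6.75, 6.81, 6.78 and 6.63 in males and 7.63, 7.45, 7.22, 7.56 and 7.55 in females (ratios -0.81, -0.69, -0.41, -0.78 and -0.91, mean -0.72, SD 0.19). The male and female groups did not overlap for any of these 4 probes either.

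Among all kept probes, a ratio below 0 in every male-female pair was found in 7.3%, male levels that all lay below the female ones in 1.29%, and a mean more than 2-fold lower in males in 0.0676%. The family met these criteria with 7, 7 and 6 of its 7 probes, as the measured ratios by which it was chosen allow. Ordered from the most male-low of the 35477 probes, the 7 held ranks 5, 6, 7, 10, 11, 18 and 47. The size of the difference depended on the processing. With the scanner software's own ratios, which differ in both background treatment and normalization, the median over the 7 probes was -2.01, against -1.42 here, and Stfa2, Stfa2l1 and Stfa3 read -1.97, -1.31 and -1.92. With no background correction the median was -1.30. In all 5 pairs the 3 Cstdc6 probes were the lowest of the family and Stfa2l1 the highest.

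**Figure D1:**
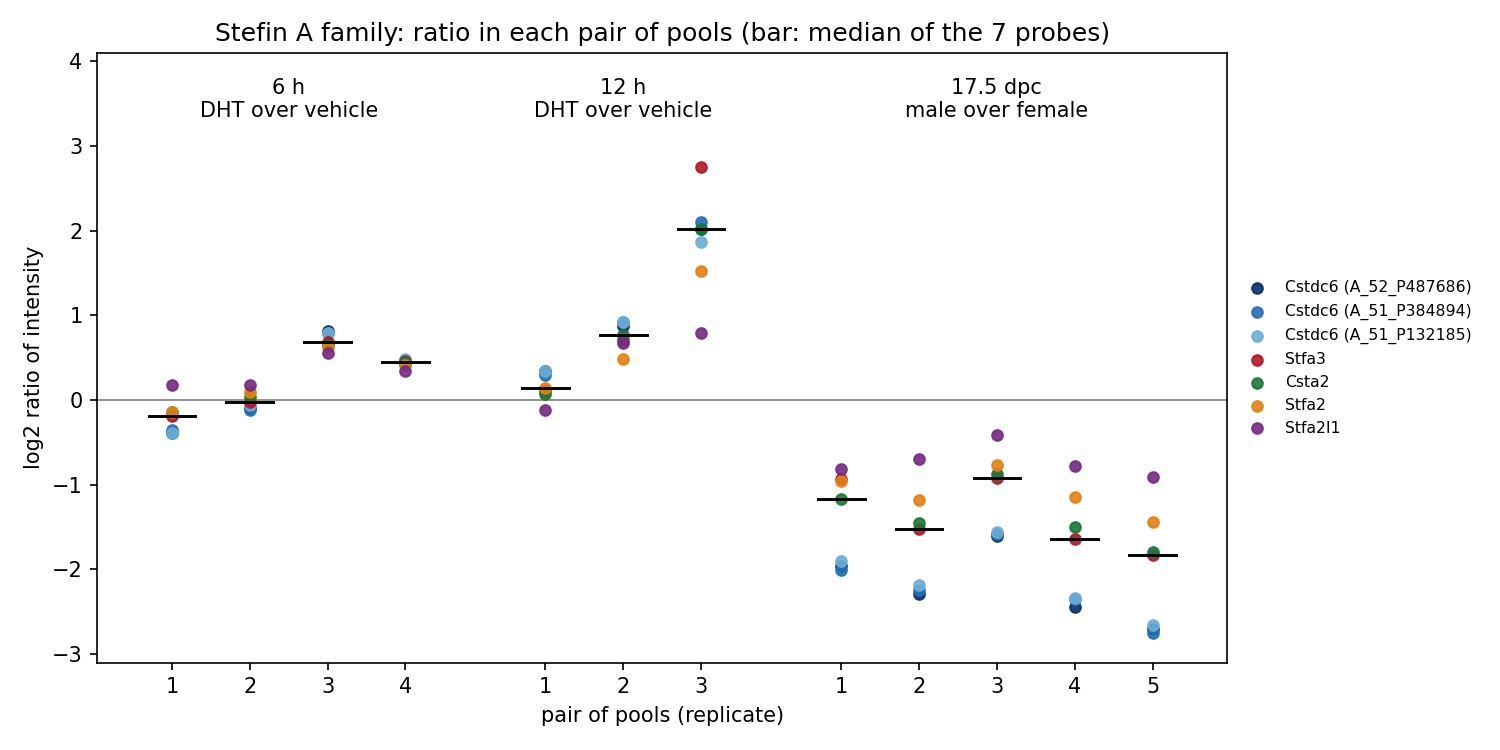
The log2 ratio of each of the 7 stefin A probes (points) is plotted for the 12 pairs of pools, grouped by comparison, with a bar at the median of the probes. The 5 male-female pairs lie between medians of -0.92 and -1.83, the 3 pairs at 12 h between 0.14 and 2.02, and the 4 pairs at 6 h on both sides of 0.

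At 6 h the DHT and vehicle pools overlapped for all 7 probes, and the direction differed between pairs. The Cstdc6 probe A_52_P487686 had levels of 10.59, 10.27, 10.87 and 10.66 in DHT pools and 10.98, 10.37, 10.05 and 10.20 in vehicle pools, with ratios of -0.39, -0.10, 0.82 and 0.47 (mean 0.20, SD 0.55, n = 4). A_51_P384894 had 10.86, 10.48, 11.07 and 10.88 in DHT pools and 11.21, 10.59, 10.27 and 10.45 in vehicle pools (ratios -0.35, -0.11, 0.79 and 0.42), and A_51_P132185 had 10.12, 9.86, 10.41 and 10.23 in DHT pools and 10.50, 9.92, 9.61 and 9.74 in vehicle pools (ratios -0.39, -0.05, 0.80 and 0.49). For all 3, replicates 3 and 4 were higher in DHT and replicates 1 and 2 lower. Csta2 had 9.36, 9.05, 9.60 and 9.59 in DHT pools and 9.50, 9.01, 8.95 and 9.13 in vehicle pools, with ratios of -0.14, 0.03, 0.65 and 0.46. Stfa3 had 8.81, 8.6, 9.15 and 9.03 in DHT pools and 9.0, 8.62, 8.46 and 8.57 in vehicle pools, with ratios of -0.19, -0.02, 0.69 and 0.47. Both therefore followed the Cstdc6 probes, with replicate 2 close to 0. Stfa2 had 8.17, 7.97, 8.34 and 8.24 in DHT pools and 8.31, 7.87, 7.71 and 7.83 in vehicle pools (ratios -0.14, 0.10, 0.62 and 0.41). Stfa2l1 had 8.39, 7.96, 8.44 and 8.42 in DHT pools and 8.21, 7.78, 7.89 and 8.07 in vehicle pools (ratios 0.18, 0.18, 0.56 and 0.35). Stfa2l1 was the 1 probe of 7 above 0 in every pair, as were 11.8% of all kept probes. The mean over the pairs of the family median was 0.23 (SD 0.41).

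The vehicle pools of 6 h replicates 2 to 4 carried RNA of Y-linked genes, although all pools of this comparison are labelled female. Eif2s3y, a Y-linked translation factor, had log2 levels of 5.98, 6.27, 6.40 and 6.23 in the DHT pools and 6.02, 8.65, 7.64 and 7.80 in the vehicle pools, against 8.51 to 9.01 in the male pools of the other set. The mean ratio of the 5 measured Y-linked genes was -0.12, -1.01, -0.55 and -0.59 in the 4 pairs, beside family medians of -0.19, -0.02, 0.69 and 0.46. The vehicle pool without that RNA, replicate 1, had the highest stefin level of the 4 for all 7 probes, and its pair was the lowest in ratio for 6 of them. The part of male RNA in the 6 h stefin ratios was not tested.

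At 12 h the ratios were higher but uneven. Stfa3 had levels of 7.13, 7.89 and 10.10 in DHT pools and 7.02, 7.18 and 7.35 in vehicle pools, with ratios of 0.11, 0.71 and 2.75 (mean 1.19, SD 1.39, n = 3). The vehicle pools lay close together, and the DHT pool of replicate 3 stood far above the other 2. A_52_P487686 of Cstdc6 had 8.82, 9.31 and 10.70 in DHT pools and 8.47, 8.43 and 8.68 in vehicle pools, with ratios of 0.35, 0.88 and 2.02 (mean 1.08, SD 0.86). A_51_P384894 had 9.02, 9.63 and 11.12 in DHT pools and 8.72, 8.71 and 9.02 in vehicle pools (ratios 0.30, 0.92 and 2.10). A_51_P132185 had 8.17, 8.69 and 10.05 in DHT pools and 7.83, 7.77 and 8.18 in vehicle pools (ratios 0.34, 0.92 and 1.87). The first 2 of these Cstdc6 probes were the only ones of the 7 whose DHT and vehicle pools did not overlap. For A_51_P384894 the lowest DHT pool, at 9.022, was barely above the highest vehicle pool, at 9.019. The share of all kept probes without overlap at 12 h was not counted. Csta2 had 7.75, 8.42 and 9.94 in DHT pools and 7.67, 7.66 and 7.91 in vehicle pools (ratios 0.08, 0.77 and 2.02), and Stfa2 had 6.48, 6.85 and 8.05 in DHT pools and 6.34, 6.36 and 6.53 in vehicle pools (ratios 0.14, 0.49 and 1.53). Stfa2l1 departed from this pattern, with 6.75, 7.35 and 7.62 in DHT pools and 6.87, 6.68 and 6.82 in vehicle pools: its ratios were -0.12, 0.68 and 0.79 (mean 0.45, SD 0.49).

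Of the 7 probes, 6 were above 0 in all 3 pairs at 12 h, as were 16.3% of all kept probes. The mean over pairs of the family median was 0.98 (SD 0.96), and without replicate 3 it was 0.45. In replicate 3, markers of stratified squamous epithelium were also higher in the DHT pool: the mean ratio of the 28 measured markers was 0.93 there, against 0.15 in replicate 2 and 0.0011 in replicate 1. Their summed linear intensity ranged from 24192 to 72532 in DHT pools and from 24444 to 27704 in vehicle pools. Of the 28, 24 averaged above 0 at 12 h, while Krt1, Tgm3, Sfn and Dsg3 were below it (-0.11, -0.12, -0.17 and -0.0050). The largest means, named after their values were seen, were those of Lor, Krt10 and Calm4. They were 1.21 (SD 1.86), 1.16 (SD 1.93) and 1.11 (SD 1.69), and none of them passed in limma (adjusted p = 0.227, 0.257 and 0.220). Between the sexes, where the stefins differed most, the mean ratio of the 28 markers per pair was 0.018 to 0.17. Their part in the 12 h stefin ratios was not tested.

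**Figure D2:**
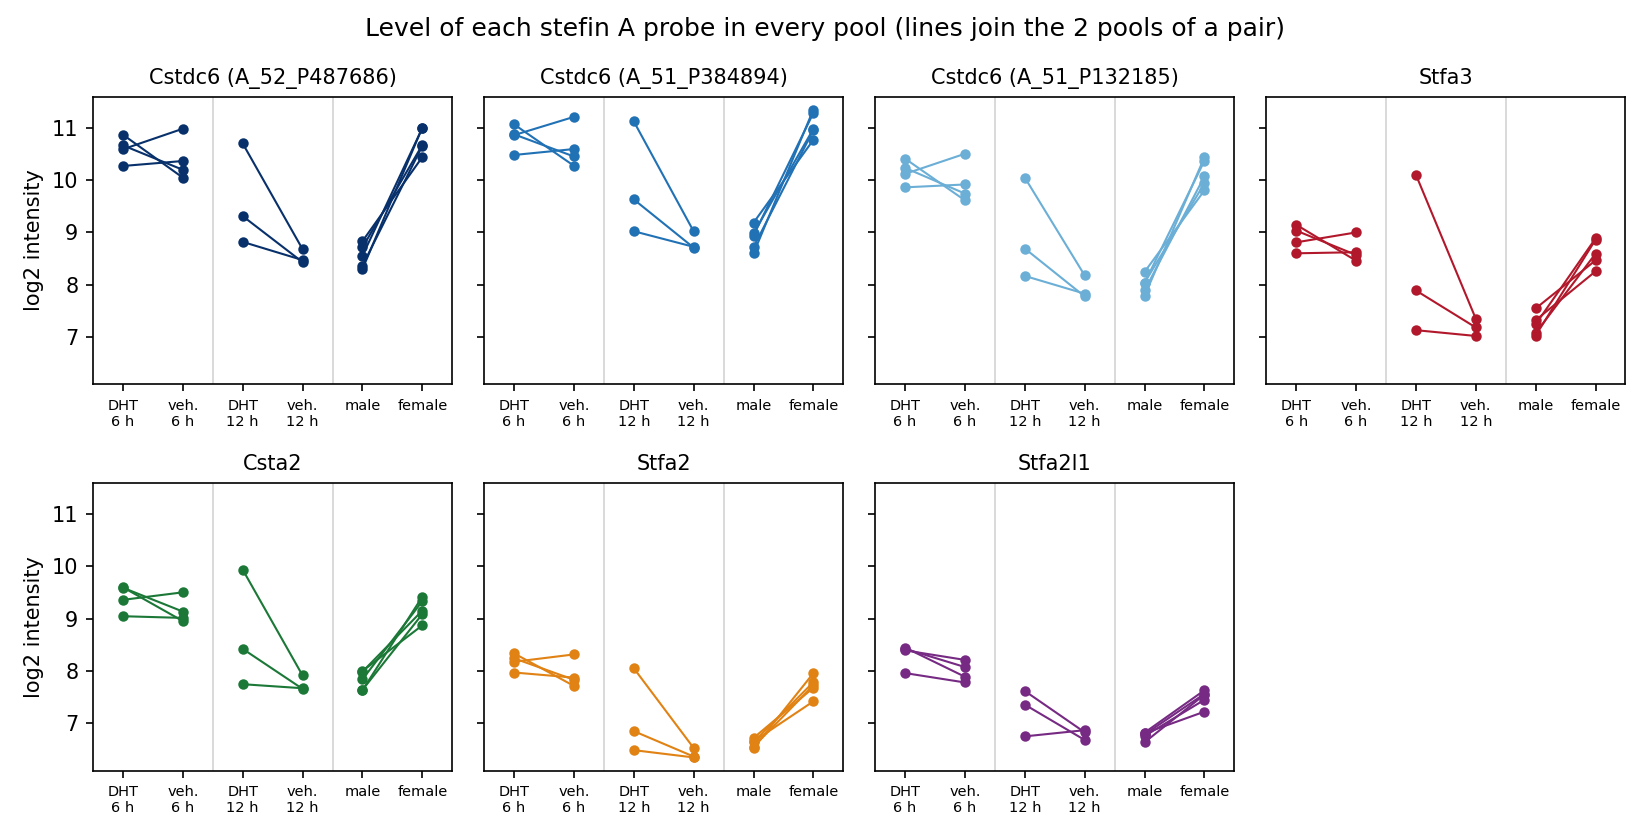
The log2 intensity of each probe is plotted for all 24 pools, 1 panel a probe, with lines joining the 2 pools of a pair and DHT left of vehicle and male left of female. The male pools and the 12 h vehicle pools are low in every panel, and the 12 h DHT pools spread over most of the range.

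Set out by pool, the levels fell into 2 ranges. For all 7 probes, every DHT pool and vehicle pool of 6 h and every female pool lay above every male pool and every 12 h vehicle pool. For Csta2 the lowest of the first set was 8.87 and the highest of the second 8.00. The family was chosen from ratios of these arrays, and the share of all kept probes with such a split was not counted. The 12 h DHT pools bridged the ranges. In the order of mean levels, neighbouring pool types overlapped for all probes except Stfa2l1, whose 6 h vehicle pools lay above the female pools. The 12 h vehicle pools averaged 1.20 to 2.02 lower than the 6 h vehicle pools, 2.29-fold to 4.05-fold, while the median over all kept probes was -0.013. The 2 times were hybridised as separate sets, so time and set cannot be told apart.

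The patterns of the 7 probes were much alike. Over the 12 pairs, Pearson correlations of log2 ratios between probes were 0.913 to 0.999, with a median of 0.986 over the 21 probe pairs. The 3 Cstdc6 probes correlated at 0.999, and the other 18 probe pairs at a median of 0.974. With the mean of each comparison taken off, which leaves only the differences between pairs within a comparison, the median was 0.970 and the lowest 0.752, for Stfa3 and Stfa2l1. With the male-female pairs left out, the median was 0.970 and the lowest 0.766. For the levels over the 24 pools, correlations were 0.83 to 0.998. Each point is a pair of pools measured on the same arrays for all probes, so the probes share labelling and hybridisation as well as RNA. Dye orientation moved single values, with a median gap between the 2 arrays of a pair of 0.098 at 6 h, 0.193 at 12 h and 0.203 between the sexes.

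**Figure D3:**
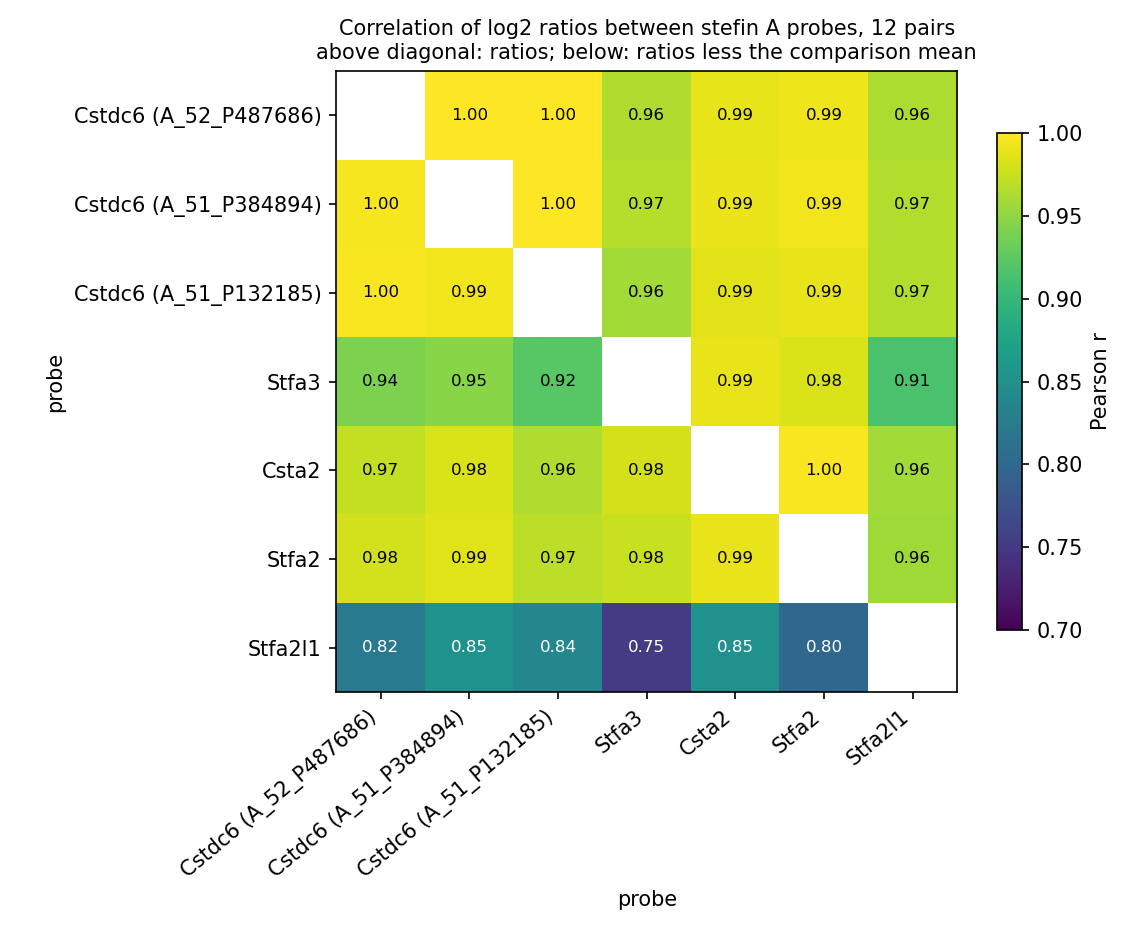
Pearson correlations between the probes over the 12 pairs of pools are shown above the diagonal for log2 ratios and below it for log2 ratios less the mean of their comparison. The lowest values below the diagonal, down to 0.75, are those of Stfa2l1.

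Few genes outside the family had a pattern like it. The correlation with the mean ratio of the 7 probes had a median of about 0 over 24670 genes, and 28 of them, 0.113%, exceeded 0.9. The 10 highest were NAP065340-1 (r = 0.973), ENSMUST00000077110 (0.967), Lmna (0.965), Zfp955a (0.959), Dhrs7 (0.947), Dgat2 (0.947), AK089257 (0.940), Csta1 (0.938), LOC383801 (0.931) and Ndrg1 (0.929), each over the 12 pairs. Of these, 2 are stefins by annotation, Csta1 and AK089257, a transcript that the files describe as similar to cystatin A1. NAP065340-1 and ENSMUST00000077110 have no description. Lmna encodes lamin A/C, Dgat2 an enzyme of triglyceride synthesis, and Ndrg1 is a stress-responsive and androgen-responsive gene. They were picked for this likeness, which includes the male-female pairs, so their ratios are given here as a description, with no test. Between the sexes ENSMUST00000077110 averaged -0.78 (SD 0.23, n = 5), AK089257 -0.69 (SD 0.30) and NAP065340-1 -0.61 (SD 0.17). The others were closer to 0, with Dhrs7 at -0.47, Ndrg1 at -0.45, Lmna at -0.18, Dgat2 at -0.16, Zfp955a at -0.10 and LOC383801 at -0.058. With the mean of each comparison taken off, the correlations of the 10 with the family were 0.683 to 0.906.

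Csta1, the stefin at the edge of the array and the mouse gene named like human CSTA, was not chosen by the rule and is tested here as a member of the list of other cystatins. It is also among the genes picked above for likeness to the family, so its p-values are not independent support for the family's pattern. Its levels were 6.17, 6.08, 6.10, 6.14 and 6.15 in male pools and 6.48, 6.38, 6.44, 6.46 and 6.51 in female pools. The groups did not overlap, and it fell by 0.32 in males (SD 0.025, n = 5, limma adjusted p = 0.0020), with a male channel well above background on 2 of 10 arrays and a female channel on all 10. The fall is thus taken against male levels that were mostly not well above background, and its size is not set against that of the other probes. At 12 h it had 6.57, 6.49 and 7.21 in DHT pools and 6.24, 6.27 and 6.57 in vehicle pools, a rise of 0.39 (SD 0.21, n = 3, limma adjusted p = 0.0498), and at 6 h it averaged 0.043 (adjusted p = 0.885). The male-female call held under all 14 alternative settings. The 12 h call held under 2 of 12 and was lost when any 1 of the 3 pairs was left out, as were all calls at 12 h: limma then passed 0 genes, against 2899 to 2993 at an unadjusted p under 0.05. The Csta1 probe shares 2 accessions with 1 Cstdc6 probe, and whether it also binds that transcript was not tested. Cstdc3, inside the cluster, was well above background on 0 of 24 arrays.

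The genes that flank the cluster were measured too. Of the 3 measured genes on each side (Wdr5b, Fam162a and Ccdc58 before it, Casr, Cd86 and Ildr1 after it), Fam162a fell by 0.25 in males (SD 0.15, n = 5, limma adjusted p = 0.0418; the call was lost without any of replicates 2 to 5). The other 5 did not pass in any comparison, and averaged -0.030 to 0.081 between the sexes.

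Of 15 measured genes listed as other cystatins, Csta1 alone passed in limma at 12 h and between the sexes, and 0 passed at 6 h. The list also holds Ahsg, Fetub and Hrg, plasma proteins with cystatin domains, and Cstad, which is not a cystatin, and 6 of the 15 were well above background in all 48 channels. Across all 24717 genes, 0.287% passed at 12 h, 7.58% between the sexes and 1.63% at 6 h. These shares are the background for the counts of the other lists as well. Cystatin B (Cstb), the other cytosolic stefin, averaged 0.16 between the sexes (SD 0.13, limma adjusted p = 0.145) and 0.19 at 12 h (SD 0.21, adjusted p = 0.281). The list's medians were -0.0079, 0.049 and 0.037 at 6 h, 12 h and between the sexes, beside medians over all genes of 0.0066, 0.0023 and 0.00076.

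Among 19 measured cysteine cathepsins and related genes, 3 were higher and 3 lower in males. The 3 papain-like proteases among them were Ctss, Ctsb and Ctso, and the other 3 (Lgmn, Tinag and Tinagl1) are not papain-like proteases. Ctss (cathepsin S, of antigen-presenting cells) fell by 0.37 (SD 0.21, n = 5, limma adjusted p = 0.0026). Ctsb (cathepsin B) fell by 0.15 (SD 0.076, adjusted p = 0.0366), a call that was lost without replicate 1, 3, 4 or 5 and under 4 other settings, and Lgmn, an asparaginyl endopeptidase, by 0.21 (SD 0.068, adjusted p = 0.0014); both are named after their values were seen. Ctso rose by 0.32 (SD 0.085, adjusted p = 4.75e-05), and it also rose at 6 h by 0.27 (SD 0.050, n = 4, adjusted p = 0.0083). Tinagl1 rose by 0.28 and Tinag by 0.21 (adjusted p = 0.0020 and 0.0138), both matrix proteins that resemble cathepsins. The 6 h call of Ctso was lost without replicate 1 or 2, and the call of Tinag without replicate 2 or 4. With the male-female pairs fitted alone, Ctss did not pass (adjusted p = 0.0586). At 12 h 0 of the 19 passed, with Ctsc at 0.14 (SD 0.067, n = 3, adjusted p = 0.297). The median of the list was 0.017 between the sexes. In the list of 16 serpins and other protease inhibitors, Wfdc2, a secreted inhibitor of the whey acidic protein family, fell by 1.27 in males (SD 0.31, adjusted p = 4.75e-06) and Spint1, an epithelial serine protease inhibitor, rose by 0.40 (adjusted p = 0.0231), a call that any of replicates 2 to 5 ended when left out.

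Markers of cells that express stefins were measured on the same arrays. Across all 24717 genes, 7.58% passed between the sexes, 1.63% at 6 h and 0.287% at 12 h, and the neutrophil counts are near those shares. Of 19 measured neutrophil markers, 1 passed between the sexes (Padi4, which fell by 0.21 in males, SD 0.084, n = 5, limma adjusted p = 0.0120, lost without replicate 4) and 0 at 6 h and 12 h. Their mean ratio per pair was -0.044 to 0.051 between the sexes, where the family median was -1.83 to -0.92, and -0.22 in replicate 3 of 12 h, where the family median was 2.02. Their summed intensity was 1696 to 1940 in male pools and 1750 to 1876 in female pools, and Ngp and Csf3r did not pass the filter on dim probes. Of the 19, 6 were well above background in all 48 channels and averaged -0.21 to 0.073 between the sexes, and 5 (Il1b, Mmp8, Lcn2, Gfi1 and Retnlg) were so in 8 to 19 of the 48, where a change could go unmeasured. S100a9, a granule protein of neutrophils, averaged 0.54 at 6 h (SD 0.94, n = 4) and did not pass (adjusted p = 0.606). The part of neutrophils in the stefin ratios was not tested.

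Of 18 macrophage and mast cell markers, 6 were lower and 1 higher in males. Lyz2, the macrophage lysozyme, fell by 0.53 (SD 0.32, n = 5, limma adjusted p = 0.0052), C1qc, a complement subunit, by 0.36 (SD 0.10, adjusted p = 0.000103) and Adgre1, the F4/80 antigen, by 0.31 (SD 0.14, adjusted p = 0.0147), while Kit rose by 0.33 (SD 0.14, adjusted p = 0.000767). Adgre1 and Ptprc rose at 6 h by 0.36 and 0.19 (adjusted p = 0.0379 and 0.0266), calls that held under 5 and 4 of 13 alternative settings and ended without replicate 1, 2 or 3 and, for Ptprc, also without replicate 4. At 12 h 0 passed. Between the sexes the call of Adgre1 was lost without replicate 3 or 4, and that of Lyz2 with these pairs fitted alone (adjusted p = 0.0639). The mean of the list per pair was -0.23 to -0.035 between the sexes, and its summed intensity was 3843 to 4634 in male pools and 4757 to 5317 in female pools. The 6 lower ones went in the direction of the stefins, and Kit in the other. At 6 h the mean of the list per pair was 0.11 to 0.24, where the family median was -0.19 to 0.69. At 12 h it was -0.032 to 0.039, where the family median was 0.14 to 2.02. The part of these cells in the stefin ratios was not tested.

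Of 23 measured markers of UGS and bladder epithelium, 14 were higher and 0 lower in males, with a list median of 0.41. At 6 h all 23 were below 0 in DHT over vehicle (median -0.28) and at 12 h all 23 above it (median 0.25), though 1 passed at 6 h (Gata3, which fell by 0.49, SD 0.13, n = 4, limma adjusted p = 0.0023) and 0 at 12 h. Their part in the stefin ratios was not tested. Psca, a surface antigen of prostate and bladder epithelium, rose by 1.02 (SD 0.21, n = 5, limma adjusted p = 1.00e-06). Of 28 squamous markers, 3 were higher (Krt15, Krt13 and Sprr1a) and 1 lower in males. The 3 higher calls were lost without replicate 3 or 4, and those of Krt15 and Sprr1a also without others. The lower one was Krt17, a keratin of basal and stressed epithelium, which fell by 0.72 (SD 0.16, adjusted p = 0.0028). At 12 h Ivl, the cornified envelope protein involucrin, was the 1 squamous marker of 28 to pass, with a rise of 0.41 (SD 0.23, n = 3, adjusted p = 0.0498). Of 13 mesenchyme and smooth muscle markers, 5 were lower and 0 higher in males, with a median of -0.36, led by Col1a1, a fibrillar collagen (-0.67, SD 0.56, n = 5, limma adjusted p = 0.0120, and 0.155 fitted alone). Of 12 duct markers, 2 were higher and 2 lower in males. The higher were Calb1, a Wolffian duct marker (1.53, SD 0.29, n = 5, limma adjusted p = 2.86e-05), and Wnt9b, a Wolffian duct ligand (0.51, SD 0.14, adjusted p = 9.82e-05). The lower were Amhr2, the receptor for anti-Mullerian hormone (-1.08, SD 0.32, adjusted p = 4.13e-05), and Wnt7a, a ligand of Mullerian duct epithelium (-0.77, SD 0.079, adjusted p = 1.07e-06). Over the 12 pairs the ratios of Wnt7a and Amhr2 correlated with the family mean at 0.845 and 0.621. Those of Calb1 and Wnt9b did so at -0.850 and -0.703, and the mean of the duct list at -0.559. Among the squamous markers that passed between the sexes, Krt17 correlated at 0.863, and Krt15, Krt13 and Sprr1a at -0.196, -0.180 and -0.187. The mean of the squamous list correlated at 0.427. These correlations include the male-female pairs by which the genes were named. At 12 h Wnt7a averaged -0.11 and Amhr2 -0.41. The part of the mesenchyme and duct markers that were lower in males in the stefin difference was not tested.

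Of 14 measured androgen-responsive genes, 8 were higher and 1 lower in males, led by Sgk1, a kinase (1.16, SD 0.050, n = 5, limma adjusted p = 4.29e-07). Klf15, a transcription factor and target of steroid receptors, rose in males by 0.91 (SD 0.10, adjusted p = 9.20e-06) and in DHT pools at 12 h by 0.57 (SD 0.053, n = 3, adjusted p = 0.0498). The mean family median in these 2 comparisons was -1.42 (SD 0.37) and 0.98 (SD 0.96). Like that of Csta1, the 12 h calls of Ivl and Klf15 were lost without any 1 of the 3 pairs.

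**Figure D4:**
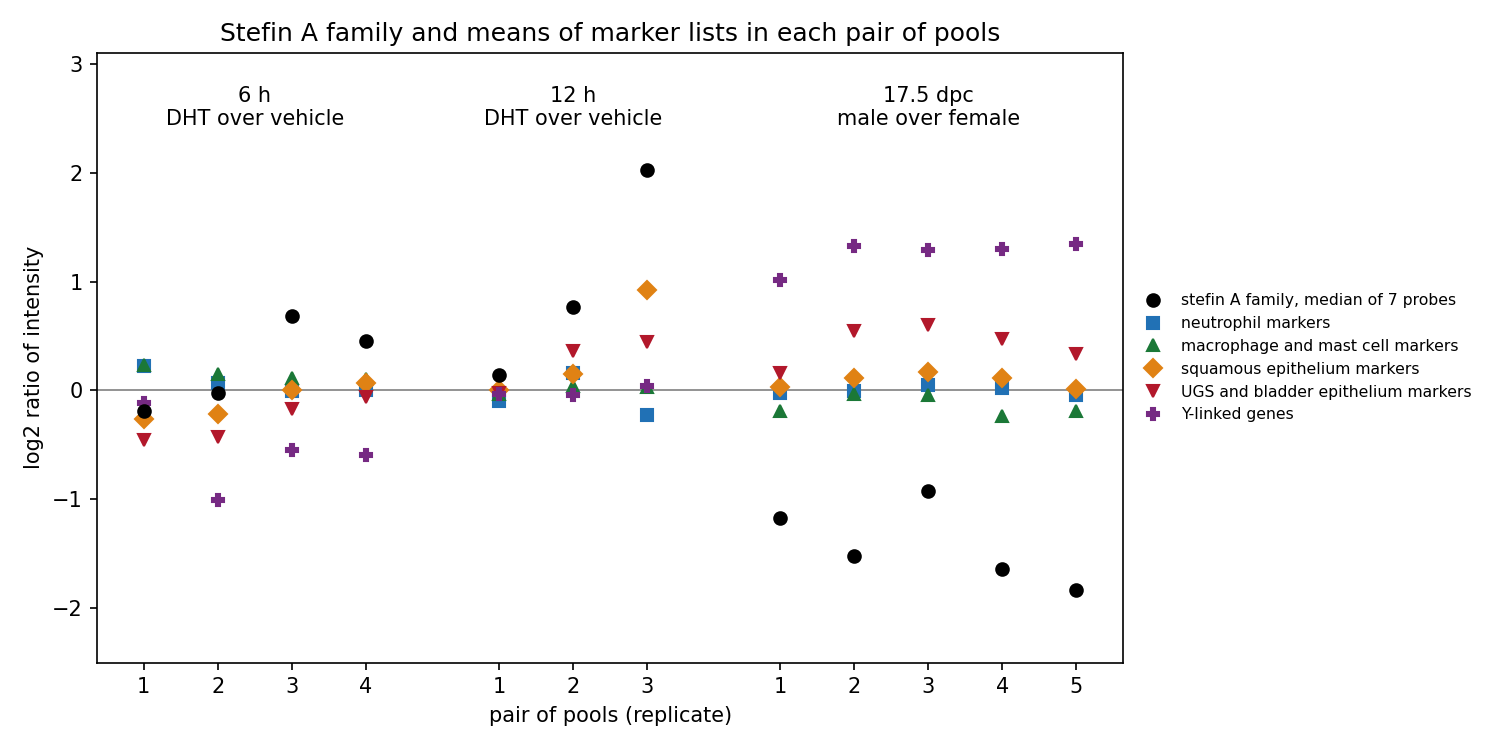
The median log2 ratio of the 7 stefin A probes (black) is plotted for each pair of pools beside the mean log2 ratios of 5 gene lists. The family is below all 5 lists in every male-female pair and above them in all 3 pairs at 12 h.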

How the data were processed

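Scanner files of 24 2-colour arrays were deposited, made with Agilent Feature Extraction 7.5.1 per the file headers, and hold spot intensity and local background in both channels. The authors' log10 ratio in those files and the deposited series matrix of log2 ratios, whose normalization is not given in the sources used here, served as alternatives. In R 4.3.3 with limma 3.58.1 and data.table (version 1.17.8), background was corrected (normexp, offset 50), ratios were normalised by loess, spots marked as outliers were set to missing, and the 2 arrays of each pair averaged. Levels are channel intensities after between-array scaling (Aquantile). Median spot signals were 102.3 to 151.1 in Cy3 and 98.14 to 146.2 in Cy5, and the number of pairs limits the precision. Probes well above background in a channel on at least 6 of 24 arrays were kept, and the brightest stood for its gene (24717). All 12 pairs were fitted together with 1 coefficient per comparison, with two-sided moderated tests adjusted by Benjamini-Hochberg at 0.05. The code was tested on simulated data. Members, lists and tests were chosen with earlier results of these data known. Named genes are up to 4 per list and comparison past the threshold with the largest ratio, or up to 2 if none passed, the 10 genes most like the family, and 3 neighbours on each side. Nothing but the pooling tells whether pools are independent litters, so p-values refer to these pools only. They rest on the spread of each gene within the comparisons over all 12 pairs, moderated across genes, and not on 1 comparison alone. Each ratio already pairs the 2 pools of an array.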

Additional observations from a re-analysis of the deposited data

Results flagged for a closer look

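Of 42 groups of 4 or 5 values examined, 1 held a value far from the others: among the 6 h DHT pools, Stfa2l1 had a log2 level of 7.96 in replicate 2, against 8.39 to 8.44 in the other 3. Chance flags about 1 in 20 groups. The partner vehicle pool was also the lowest of its 4, at 7.78, so the ratio of that pair (0.18) did not stand apart.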

How the results depend on the processing

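The direction of the family median was the same in all 3 comparisons under every alternative run (background, normalization, deposited matrix, single dye orientation, pairs left out). Its range was 0.08 to 0.37 at 6 h, 0.45 to 1.39 at 12 h and -2.01 to -1.30 between the sexes. With 1 pair left out at 6 h, A_51_P384894 read -0.013 to 0.37 and A_52_P487686 -0.0069 to 0.40, both lowest without replicate 3. The median correlation was 0.970 without the male-female pairs. Counts of genes called moved more than the members. At 6 h (403) they were 92 with median centring, 25 with scanner ratios, 701 with the series matrix, 8 fitted alone and 13 to 234 with 1 pair left out (13 without replicate 2, 19 without replicate 1). At 12 h (71) they were 21, 47 and 0 in the same order for the first 3 settings, 0 without background correction, 21 with the stricter filter, 0 fitted alone and 0 with any pair left out. In the settings with 0 calls, limma gave 2636 to 3038 genes at an unadjusted p under 0.05. Between the sexes (1873) they were 869 fitted alone and 1143 to 1825 with 1 pair left out (1143 without replicate 4). Median centring moved the share called higher to 3.26% from 29.8% at 6 h, to 85.7% from 39.4% at 12 h and to 37.0% from 49.1% between the sexes. With the replicate block, 81, 6 and 1982 genes were called at 6 h, at 12 h and between the sexes. The causes were not tested.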
